A study of Mus musculus with 6 samples.

Results

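Aminoacyl-tRNA synthetases load each tRNA with its amino acid, and their genes were followed here in colon epithelium of mice whose epithelial cells carry a deletion in Sel1l. The set was defined by name as 36 genes, 20 for cytosolic enzymes and 16 for mitochondrial ones, with earlier results of these data known. Of these, 34 were measured by a probe set that names no other gene, 18 cytosolic and 16 mitochondrial, out of 19936 genes on the array. Aars, for the alanine enzyme, is read by a probe set that also names Exosc6, and Dars, for the aspartate enzyme, had no probe set in the annotation used. Neither is reported. Where a gene had several probe sets, the one with the highest mean over all 6 arrays was taken, which applied to Iars alone.

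Knockout mice (Sel1L-delta-IEC) lacked exon 6 of Sel1l, which lies between loxP sites and is cut out by Cre expressed from a villin promoter, and a lacZ-neo cassette had been removed from the allele earlier by an FLPe cross. They were compared with wild type mice, and both genotypes were male C57BL/6J animals aged 8 weeks. RNA of colon epithelium from 3 knockout and 3 wild type samples was hybridised to Affymetrix arrays. Villin is expressed in epithelial cells along the intestine, so other cells in the preparation keep Sel1l, and the labels do not say whether the wild type mice carried floxed alleles. Whether every array comes from its own mouse is also not said, and the p-values thus reflect array-to-array spread that may be technical. Levels are log2 values, so a difference of 1 is a doubling, and levels of different probe sets are not compared.

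A cell has 2 sets of these enzymes, one for the cytosol and one for mitochondria, and all but a few are encoded by separate nuclear genes. Cytosolic synthetases serve the translation of nuclear messages, and several of them sit in a multi-synthetase complex held together by scaffold proteins. In the integrated stress response, kinases phosphorylate the initiation factor eIF2α, bulk translation falls and the transcription factor ATF4 is made. ATF4 is known to induce genes for amino acid synthesis, amino acid uptake and many cytosolic synthetases. PERK, the kinase of the endoplasmic reticulum (ER), links this response to misfolded proteins in the ER, the compartment in which Sel1L works.

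Sel1l read 8.70, 9.06 and 8.66 in the knockout arrays, against 9.45, 9.67 and 9.54 in the wild type arrays, a change of -0.74 ± 0.112 (SE, limma adjusted p = 0.018). Which exons its probe set reads is not given in the annotation used here. Every knockout array lay below every wild type array, so leaving out 1 array cannot reverse the direction. With 1 array left out the limma adjusted p was 0.013 to 0.087. It was above 0.05 with wild type 1, wild type 2, knockout 1 or knockout 3 omitted. All 10 epithelial markers lay above the array median of 6.34, with a mean level of 11.69 to 11.76 in the knockout arrays and 11.84 to 12.01 in the wild type arrays. Of the other cell types, 2 of 6 leukocyte, 1 of 4 plasma cell, 3 of 5 fibroblast and muscle, 0 of 2 endothelial and 0 of 2 nerve and glia markers lay above that median, and none of them was called. Of all 19936 genes, 10912 lay above that median. In bulk samples, fewer cells of a type and less RNA per cell cannot be told apart. Over all genes, correlations between arrays lay between 0.993 and 0.997.

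Most cytosolic synthetase genes had higher values in knockout epithelium, and 4 of the 18 passed the test. A gene was called at a limma p under 0.05 after Benjamini-Hochberg adjustment over all genes. By this rule Sars, Nars, Gars and Rars rose and none fell, while 1.63% of all genes were called, 0.918% higher and 0.712% lower. The median change of the 18 genes was 0.29, against 0.019 over all genes, and 17 of the 18 changes were above 0, as were 57.2% of all changes. In 15 of the 18 genes every knockout array lay above every wild type array, which held for 11.4% of all genes. An unadjusted p under 0.05 with a higher level in the knockout was reached by 14 of the 18, against 7.72% of all genes, and with a lower level by 0 of the 18, against 5.62%. The genes were chosen with earlier results of these arrays known, so these counts are no independent evidence. No mitochondrial synthetase gene was called, and their median change was -0.001.

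**Figure D1:**
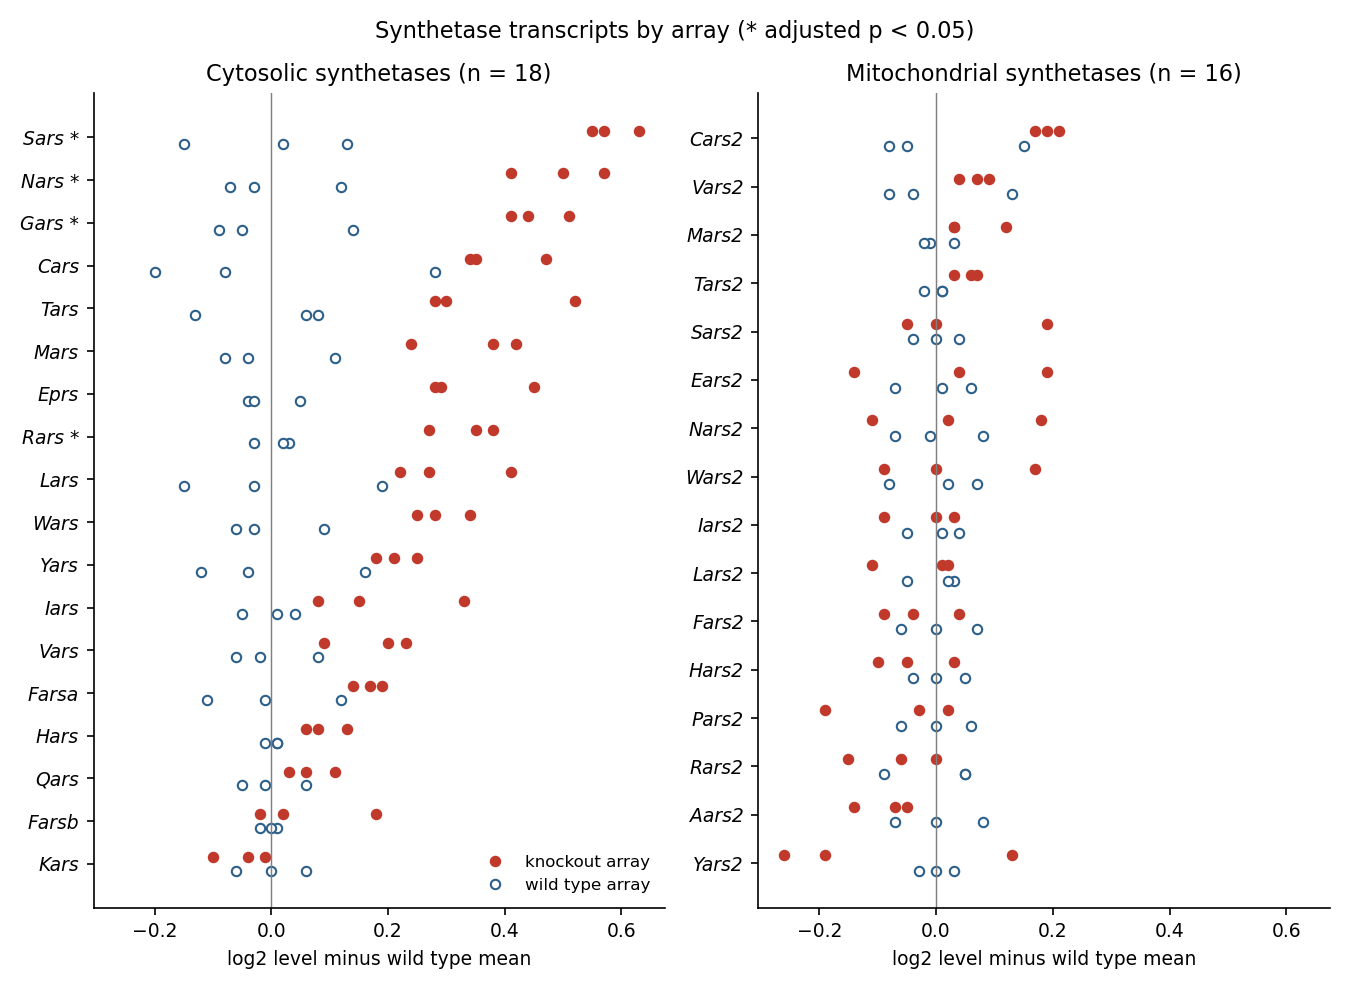
Log2 level of each synthetase gene in each array minus the wild type mean of that gene, for 18 cytosolic (left) and 16 mitochondrial (right) genes ordered by their change. Filled points are the 3 knockout arrays, open points the 3 wild type arrays, and an asterisk marks an adjusted p under 0.05. The filled points lie to the right of all open points in 15 cytosolic and 3 mitochondrial genes.

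Sars, which encodes the serine enzyme, had the largest change of the 34 genes. It read 10.10, 10.02 and 10.04 in the knockout arrays, against 9.32, 9.49 and 9.60 in the wild type arrays. The groups were well apart, with a rise of 0.58 ± 0.080 (SE) or 1.49-fold (limma adjusted p = 0.013), the 92nd largest rise on the array. Nars encodes the asparagine enzyme. Its levels were 10.90, 10.74 and 10.83 in the knockout, against 10.26, 10.30 and 10.45 in wild type, and the rise was 0.49 ± 0.075 (SE) or 1.40-fold (limma adjusted p = 0.019). Again each knockout array exceeded each wild type array.

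Gars, the glycine enzyme, is one of the genes whose transcripts give both the cytosolic and the mitochondrial form of the protein. It read 10.23, 10.13 and 10.16 in the knockout, against 9.67, 9.63 and 9.86 in wild type, a rise of 0.45 ± 0.077 (SE) or 1.37-fold (limma adjusted p = 0.028). Rars encodes the arginine enzyme, a subunit of the multi-synthetase complex. Its levels were 10.62, 10.65 and 10.54 in the knockout, against 10.30, 10.29 and 10.24 in wild type, with the tightest wild type group of the 4 (SD 0.031). Rars rose by 0.33 ± 0.060 (SE), 1.26-fold, at an adjusted p of 0.038 in limma.

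The 4 calls depended on how the variance was estimated and on single arrays. With an ordinary variance for each gene, in place of limma's moderated one, none of the 4 was called (adjusted p = 0.12 to 0.18), and over all genes 2 were called higher and 2 lower. Rars lost its call with any array left out, at an adjusted p of 0.065 to 0.14. Gars was called with wild type array 3 omitted (adjusted p = 0.018) and in none of the other 5 such fits, where it reached up to 0.12. Nars lost it with wild type 1 or 2 omitted (adjusted p = 0.084 and 0.081), and with knockout 1 or 3 omitted (0.088 and 0.065). Sars lost it with wild type 2 omitted (adjusted p = 0.055), and with knockout 1 or 2 omitted (0.069 and 0.052). In all, 0 cytosolic genes were called with wild type 2 or knockout 1 omitted, 1 with wild type 1, knockout 2 or knockout 3 omitted, and 4 with wild type 3 omitted. Calls over all genes also fell in most of these fits. With all arrays 183 genes were called higher, against 63 without wild type 2 and 46 without knockout 1. The count was 57, 68 and 119 without wild type 1, knockout 2 or knockout 3, and 190 without wild type 3. The size moved little, between 0.51 and 0.65 for Sars and between 0.30 and 0.36 for Rars.

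**Figure D2:**
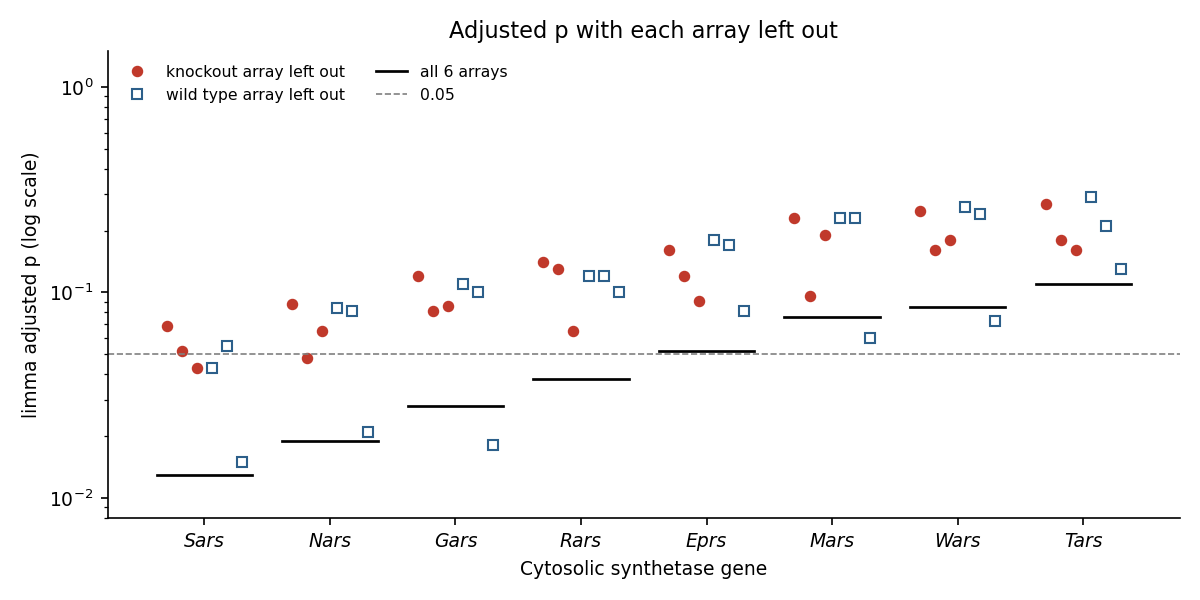
Limma adjusted p, on a log scale, of 8 cytosolic synthetase genes with each array left out. Filled circles leave out a knockout array, open squares a wild type array, the black line uses all 6 arrays and the dashed line is 0.05. Sars, Nars, Gars and Rars lie below the line with all arrays, and no fit without an array brings Rars below it.

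Promoter sequences are shown because many of the cytosolic genes moved the same way and ATF4 binds a known element, the C/EBP-ATF response element, whose core is TGATGNAA. RefSeq promoter windows of assembly GRCm38.p6, from 250 bases before to 50 bases after the start, were found for 27 of the 36 genes, and not for Cars, Hars, Hars2, Lars, Nars, Pars2, Rars, Vars and Wars. The core was searched on both strands. It occurred in a window of 5 of 13 cytosolic genes (Aars, Gars, Iars, Tars and Yars) and of 0 of 14 mitochondrial genes. Of all 32851 windows, which belong to 27025 genes, 3.97% held it. This share counts windows, whereas the synthetases are counted as genes. The longer TGATGNAAT, which contains the core, occurred in windows of 3 cytosolic genes (Aars, Gars and Iars) and in 0.965% of all windows. ATTGCATCA, which is one spelling of that longer motif read on the other strand, occurred in 2 (Aars and Iars) and 0.192% of all windows. In the 250 bases before the start alone, the core was found for 3 cytosolic genes and in 3.45% of all windows. Without a match, the letters are only absent from this window.

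The stretches below run 5′ to 3′ on the gene's strand from base -150 to base 30 relative to the start, where 1 is the first transcribed base. Capitals mark the motif matches, and the last 4 stretches, which hold none, belong to Sars, which rose, and to 3 mitochondrial genes.
Gars, chr6:55037851-55038030, plus strand: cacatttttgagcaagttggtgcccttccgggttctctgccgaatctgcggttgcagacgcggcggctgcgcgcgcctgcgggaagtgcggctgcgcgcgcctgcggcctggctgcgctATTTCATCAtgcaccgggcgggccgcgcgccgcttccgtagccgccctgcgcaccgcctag
Tars, chr15:11399629-11399808, minus strand: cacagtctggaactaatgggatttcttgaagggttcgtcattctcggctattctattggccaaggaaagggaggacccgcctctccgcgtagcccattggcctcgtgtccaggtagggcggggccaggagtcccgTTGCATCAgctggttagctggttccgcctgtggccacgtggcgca
Iars, chr13:49681980-49682159, plus strand: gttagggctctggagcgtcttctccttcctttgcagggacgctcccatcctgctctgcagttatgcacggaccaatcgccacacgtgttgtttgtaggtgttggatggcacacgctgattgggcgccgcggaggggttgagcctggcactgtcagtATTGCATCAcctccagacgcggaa
Yars, chr4:129189753-129189932, plus strand: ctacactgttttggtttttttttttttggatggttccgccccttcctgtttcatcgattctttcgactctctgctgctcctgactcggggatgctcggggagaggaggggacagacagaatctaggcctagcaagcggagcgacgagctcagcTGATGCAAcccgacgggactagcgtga
Sars, chr3:108445230-108445409, minus strand: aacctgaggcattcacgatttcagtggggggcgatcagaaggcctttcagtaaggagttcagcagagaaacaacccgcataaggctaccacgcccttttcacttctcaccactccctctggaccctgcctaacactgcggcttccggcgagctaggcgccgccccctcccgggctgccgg
Sars2, chr7:28741818-28741997, plus strand: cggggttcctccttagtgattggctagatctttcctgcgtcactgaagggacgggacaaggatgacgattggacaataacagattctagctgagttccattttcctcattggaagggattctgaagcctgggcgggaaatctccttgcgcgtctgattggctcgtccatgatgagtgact
Iars2, chr1:185329372-185329551, minus strand: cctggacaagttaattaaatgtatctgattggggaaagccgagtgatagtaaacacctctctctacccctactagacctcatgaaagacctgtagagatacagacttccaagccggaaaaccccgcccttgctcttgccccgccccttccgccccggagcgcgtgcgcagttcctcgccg
Tars2, chr3:95754948-95755127, minus strand: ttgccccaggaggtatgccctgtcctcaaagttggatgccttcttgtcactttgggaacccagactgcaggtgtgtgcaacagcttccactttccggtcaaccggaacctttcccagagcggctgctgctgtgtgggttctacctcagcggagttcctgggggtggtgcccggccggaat

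The match in Gars begins at base -31 and that in Tars at base -15, before the start. Those in Iars and Yars begin at bases 7 and 4, after it. Of these 4 genes with a match and a measured level, Gars rose, whereas Tars (0.36), Yars (0.21) and Iars (0.19) were not called. Sars, with the largest change of the measured genes, has no match in its window.

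Several cytosolic genes came close to the threshold without passing it. Eprs encodes the joint enzyme for glutamate and proline in the multi-synthetase complex. It read 9.76, 9.60 and 9.59 in the knockout, against 9.27, 9.28 and 9.36 in wild type, and its change of 0.34 ± 0.068 (SE) gave a limma adjusted p of 0.052. Mars, the enzyme for methionine, the amino acid that starts protein chains, read 8.90, 8.72 and 8.86 in the knockout, against 8.44, 8.40 and 8.59 in wild type. Its change was 0.35 ± 0.077 (SE, limma adjusted p = 0.076). In Eprs and Mars alike the lowest knockout array lay above the highest wild type array.

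Wars, for tryptophan, had levels of 10.84, 10.75 and 10.78 in the knockout, against 10.44, 10.47 and 10.59 in wild type, a change of 0.29 ± 0.066 (SE, limma adjusted p = 0.085). Tars, for threonine, had 8.76, 8.54 and 8.52 in the knockout, against 8.11, 8.30 and 8.32 in wild type, a change of 0.36 ± 0.090 (SE, limma adjusted p = 0.11). The groups were apart in both genes. Eprs, Mars, Wars and Tars were called in 5, 3, 2 and 1 of 11 alternative fits with all arrays. Without the dimmest 50% of genes all 4 of them were called.

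Cars and Lars, for cysteine and leucine, had large but uneven differences. Cars read 8.94, 8.95 and 9.07 in the knockout, against 8.40, 8.52 and 8.88 in wild type, where array 3 stood close to the knockout. Its change was 0.39 ± 0.117 (SE, limma adjusted p = 0.18), and without wild type array 3 it was 0.53 (adjusted p = 0.024). Lars read 8.70, 8.56 and 8.51 in the knockout, against 8.14, 8.26 and 8.48 in wild type, a change of 0.30 ± 0.095 (SE, limma adjusted p = 0.22). Without wild type array 3 the change of Lars was 0.39 (adjusted p = 0.089). Yars, for tyrosine, differed by 0.21 (adjusted p = 0.29), with its highest wild type array again array 3.

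Iars, Vars and Farsa, for isoleucine, valine and the alpha chain of the phenylalanine enzyme, differed by 0.19, 0.17 and 0.17 at adjusted p values of 0.33, 0.33 and 0.37. Each had all knockout arrays above all wild type arrays, in Vars by as little as 9.44 over 9.43. A second, dimmer Iars probe set read 10.11, 9.96 and 10.02 in the knockout, against 9.73, 9.70 and 9.79 in wild type. It gave 0.29 ± 0.064 (SE, limma adjusted p = 0.077), so both probe sets of Iars differed in the same direction. The annotation alone does not show which exons each one reads.

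The smallest values came from 4 genes. Hars, for histidine, differed by 0.089 (adjusted p = 0.56), with knockout arrays at 8.08, 8.13 and 8.06 and wild type arrays at 8.01, 7.99 and 8.01. Qars, for glutamine, differed by 0.07 (adjusted p = 0.69) and Farsb, the beta chain of the phenylalanine enzyme, by 0.062 (adjusted p = 0.77). Kars, for lysine, was the one cytosolic gene with a change below 0. It read 8.48, 8.45 and 8.39 in the knockout, against 8.43, 8.49 and 8.55 in wild type, and differed by -0.049 ± 0.063 (SE, limma adjusted p = 0.81). Knockout and wild type arrays overlapped in Qars, Farsb and Kars.

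Subunits of the multi-synthetase complex and free enzymes had similar medians. The 7 measured subunits (Eprs, Iars, Kars, Lars, Mars, Qars and Rars) had a median change of 0.295 with 1 called, and the 11 free enzymes a median of 0.289 with 3 called. The classes of synthetase, which differ in the fold of the catalytic domain, were close as well, at 0.29 over 9 class I genes and 0.27 over 8 class II genes, with 1 and 3 called. Eprs joins both classes and is in neither count. Kars and Gars both serve cytosol and mitochondria from 1 gene, and without them the median of the cytosolic genes stayed at 0.29.

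The mitochondrial enzymes charge the tRNAs that translate the few messages of the mitochondrial genome. Of their 16 genes, 0 were called by limma in either direction, and 1, Cars2, had an unadjusted p under 0.05, with a higher level. Over all genes 7.72% had such a p with a higher level and 5.62% with a lower one. Changes ran from -0.106 for Yars2 to 0.184 for Cars2, with 8 above 0 and 8 below. All knockout arrays lay above all wild type arrays in 3 of 16, Cars2, Mars2 and Tars2, or 18.8% against 11.4% of all genes, and in none did they all lie below. The groups were apart by only 0.019 in Cars2, 0.001 in Mars2 and 0.019 in Tars2.

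Cars2, for cysteine, read 8.30, 8.28 and 8.26 in the knockout, against 8.24, 8.04 and 8.01 in wild type, a change of 0.18 ± 0.074 (SE, limma adjusted p = 0.33). Sars2, the mitochondrial serine enzyme, read 7.93, 7.74 and 7.69 in the knockout, against 7.70, 7.78 and 7.74 in wild type, and differed by 0.049 (adjusted p = 0.85). The groups overlapped in Sars2 and barely parted in Cars2. Nars2, for asparagine, read 8.28, 7.99 and 8.12 in the knockout, against 8.03, 8.18 and 8.09 in wild type, and differed by 0.03 (adjusted p = 0.92). Rars2, for arginine, read 8.88, 8.82 and 8.73 in the knockout, against 8.93, 8.93 and 8.79 in wild type, and differed by -0.071 (adjusted p = 0.74). In Sars2, Nars2 and Rars2, the partners of 3 called cytosolic genes, the arrays overlapped.

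The remaining mitochondrial genes stayed within about 0.1 of no change. The values were 0.061 for Mars2, 0.061 for Vars2, 0.052 for Tars2, 0.033 for Ears2 and 0.021 for Wars2. They were -0.024 for Iars2, -0.026 for Lars2, -0.029 for Fars2, -0.040 for Hars2, -0.063 for Pars2, -0.087 for Aars2 and -0.106 for Yars2. Among these genes the smallest adjusted p was 0.63, for Aars2. Yars2 was the most variable in the knockout, at 7.76, 7.37 and 7.44, against 7.60, 7.66 and 7.63 in wild type. A p that misses the threshold does not show that levels were equal, and the standard errors of these 16 genes lay between 0.055 and 0.1.

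Cytosolic and mitochondrial genes for the same amino acid were then compared within each array. Of 16 pairs, in which Eprs and Fars2 each occur in 2, the cytosolic gene changed more in 16. In 10 pairs the difference between the cytosolic and the mitochondrial gene was larger in every knockout array than in any wild type array, and in none was it smaller throughout. Pairs have no counterpart over all genes, so no background share can be set beside this count. The difference of the changes was 0.53 ± 0.088 (SE) for Sars over Sars2, 0.46 ± 0.083 for Nars over Nars2 and 0.40 ± 0.043 for Rars over Rars2. For Cars over Cars2, Vars over Vars2 and Farsb over Fars2 it was 0.21 ± 0.211, 0.11 ± 0.104 and 0.091 ± 0.093, and the arrays overlapped. An exact two-sided permutation test gave p = 0.1 for each of the 10 pairs, the smallest that 3 arrays against 3 allow, and 0.16 after adjustment over the 16 pairs. No pair could pass at this size.

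**Figure D3:**
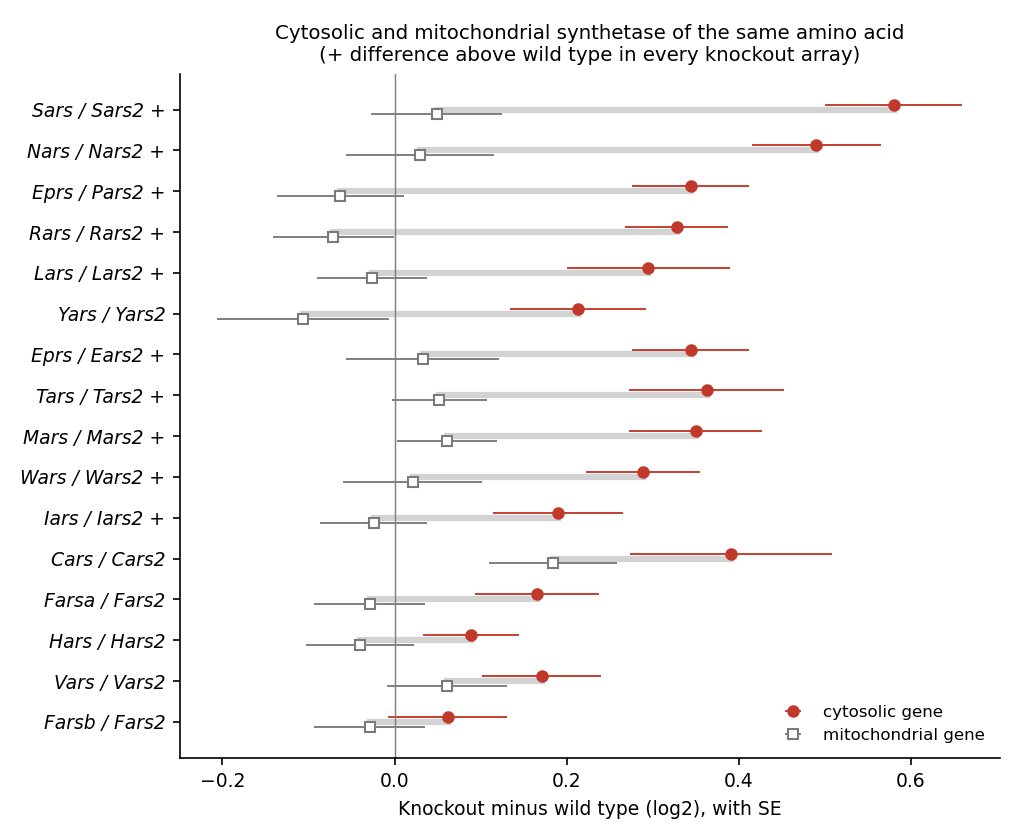
Change between knockout and wild type, in log2 units with the standard error, of the cytosolic gene (filled circle) and the mitochondrial gene (open square) for the same amino acid in 16 pairs. A plus sign marks the 10 pairs whose difference is above wild type in every knockout array. The circle lies to the right of the square in all 16 pairs.

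Hars and Hars2, for histidine, are neighbours on the chromosome in the RefSeq table. The cytosolic gene differed by 0.089 and the mitochondrial gene by -0.040. The difference of the changes was 0.13 ± 0.051 (SE, exact permutation p = 0.2).

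The 3 scaffolds of the multi-synthetase complex, Aimp1, Aimp2 and Eef1e1, differed by 0.08, -0.047 and -0.011 at limma adjusted p values of 0.73, 0.83 and 0.98, so none was called. Among 9 further measured genes of tRNA charging, editing and export, 1 (11.1%) was called, against 0.918% of all genes called higher. It was Xpot, which encodes the exporter that carries tRNAs out of the nucleus. Xpot read 9.41, 9.19 and 9.16 in the knockout, against 8.59, 8.70 and 8.80 in wild type, a rise of 0.56 ± 0.088 (SE, limma adjusted p = 0.023). Its groups were clearly apart, and the call was lost with wild type 1 or 2 omitted and with knockout 1 or 2 omitted. Of the genes not called, named after their values were seen, Prorsd1, a relative of bacterial editing proteins, differed by 0.17 (adjusted p = 0.27), and Tarsl2, a second threonine enzyme, by 0.016 (adjusted p = 0.95).

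General translation factors were read for comparison. Of 14 measured cytosolic initiation and elongation factors 0 were called by limma, with a median change of 0.049, and 1 higher and 1 lower at an unadjusted p under 0.05. Eef1a1, which delivers charged tRNAs to the ribosome, read 13.22, 13.24 and 13.20 in the knockout, against 13.18, 13.11 and 13.19 in wild type. It differed by 0.061 (adjusted p = 0.72), and it was named after its values were seen. Of 18 mitochondrial charging and translation factors 0 were called, with a median of -0.04 and 1 higher and 0 lower at an unadjusted p under 0.05. Over all genes 1.63% were called, and 7.72% were higher and 5.62% lower at that unadjusted p. A count of 1 gene in 14 or 18 is near these unadjusted shares.

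**Figure D4:**
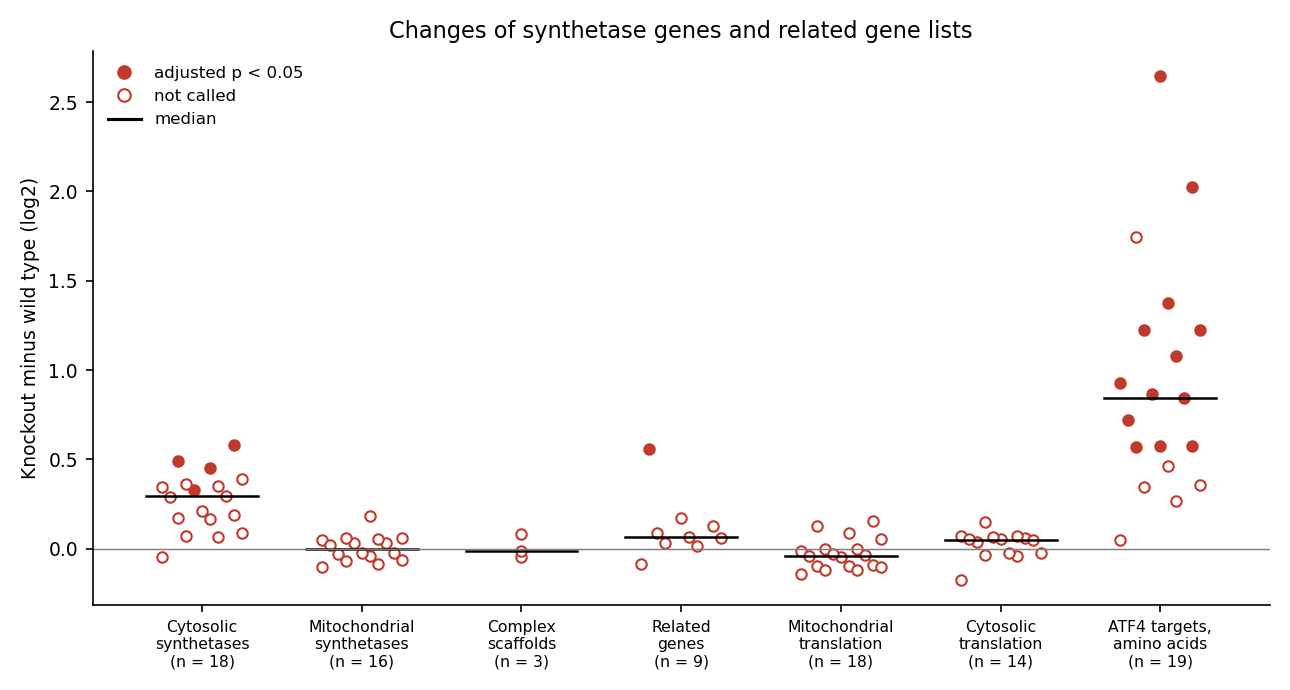
Change between knockout and wild type in log2 units of each measured gene of 7 groups. Filled points passed an adjusted p under 0.05, open points did not, and the bar is the median. The medians are 0.29 for 18 cytosolic synthetases, -0.001 for 16 mitochondrial ones and 0.84 for 19 ATF4 targets, mainly of amino acid supply. The other 4 medians lie between -0.04 and 0.066.

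Transcripts of the eIF2α kinases and of their feedback genes were set beside the synthetases. Atf4 read 8.33, 8.35 and 8.37 in the knockout, against 7.73, 7.80 and 7.91 in wild type, and rose by 0.54 ± 0.066 (SE, limma adjusted p = 0.0099). The knockout arrays lay within 0.04 of each other and above all wild type arrays. Ddit3, for the factor CHOP, rose by 0.79 and Trib3, an inhibitor of ATF4, by 0.85. Thus 3 of 9 were called higher, against 0.918% of all genes. With knockout array 1 omitted 1 of the 3 was called, Ddit3, and Trib3 was called in 1 of the 6 fits that omit an array, the one without wild type array 3. Eif2ak3, which encodes PERK, differed by 0.33 (adjusted p = 0.15), and Eif2ak4, which encodes GCN2, the kinase that senses uncharged tRNA, by -0.015 (adjusted p = 0.95). Eif2ak2, a further eIF2α kinase gene named after its values were seen, differed by -0.35 (limma adjusted p = 0.056). All its knockout arrays lay below all its wild type arrays. Kinase activity and eIF2α phosphorylation were not measured.

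A list of known ATF4 targets, mainly of amino acid supply, had larger changes in the median than the synthetases. It also holds regulators, such as the transcription factor gene Atf5. Of 19 measured, 13 were called higher and 0 lower, against 0.918% and 0.712% of all genes, with a median of 0.84. The smallest p values belonged to Aldh1l2 of folate metabolism, Pck2 of mitochondrial phosphoenolpyruvate synthesis, Psat1 of serine synthesis and the transcription factor gene Atf5, which rose by 2.65, 1.38, 1.23 and 0.84, against 0.58 for the highest synthetase. The count of 13 was 8 with wild type 1, wild type 2 or knockout 1 omitted. Genes of the same amino acids as the called synthetases were then picked from this list after its values were seen. Asns, which makes asparagine, rose by 1.23 beside 0.49 for Nars. Psat1 and Phgdh, of serine synthesis, rose by 1.23 and 0.57 beside 0.58 for Sars, and Psph, of the same pathway, differed by 0.36 (limma adjusted p = 0.076). Shmt2, which makes glycine from serine in mitochondria, rose by 0.58 beside 0.45 for Gars. Slc7a1, a carrier of arginine, differed by 0.46 (limma adjusted p = 0.12) beside 0.33 for Rars. The lists were drawn up with earlier results of these arrays known, so their direction is no independent evidence.

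Wars is induced by interferon in human cells, and interferon-induced genes were therefore read beside it. Of 13 measured interferon-induced genes 0 were called higher and 3 lower, with a median of -0.49 and all 13 changes below 0. Over all genes 0.712% were called lower, and 8537 of 19936 changes were below 0. Irf1, a transcription factor of this response, fell by 0.49 on the log2 scale (limma adjusted p = 0.017), Psmb8, of the immunoproteasome, fell by 0.63 (adjusted p = 0.022) and Ido1, which degrades tryptophan, fell by 1.33 (adjusted p = 0.025), whereas Wars differed by 0.29 with all knockout arrays above wild type. The interferon list had 0 genes called without wild type array 1 and 1 without knockout array 1 or 2.

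The single arrays were not equally far from the other genotype. Wild type array 3 was the highest wild type array in 14 of 18 cytosolic synthetase genes and in 16 of 19 ATF4 targets. Over all genes it was the highest in 7377 of 19936. Its mean deviation from the wild type mean was 0.085 over the cytosolic synthetases, against -0.065 and -0.020 for wild type arrays 1 and 2, and 0.23 to 0.32 for the knockout arrays. Over the ATF4 targets it was 0.27, against -0.161 and -0.113 for the other wild type arrays, and 0.94 in each knockout array. Wild type array 3 was also the highest wild type array in 12 of 13 interferon-induced genes, and the lowest in 9 of 10 epithelial markers. Without it, the median change of the cytosolic synthetases was 0.32, and 4 were called.

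**Figure D5:**
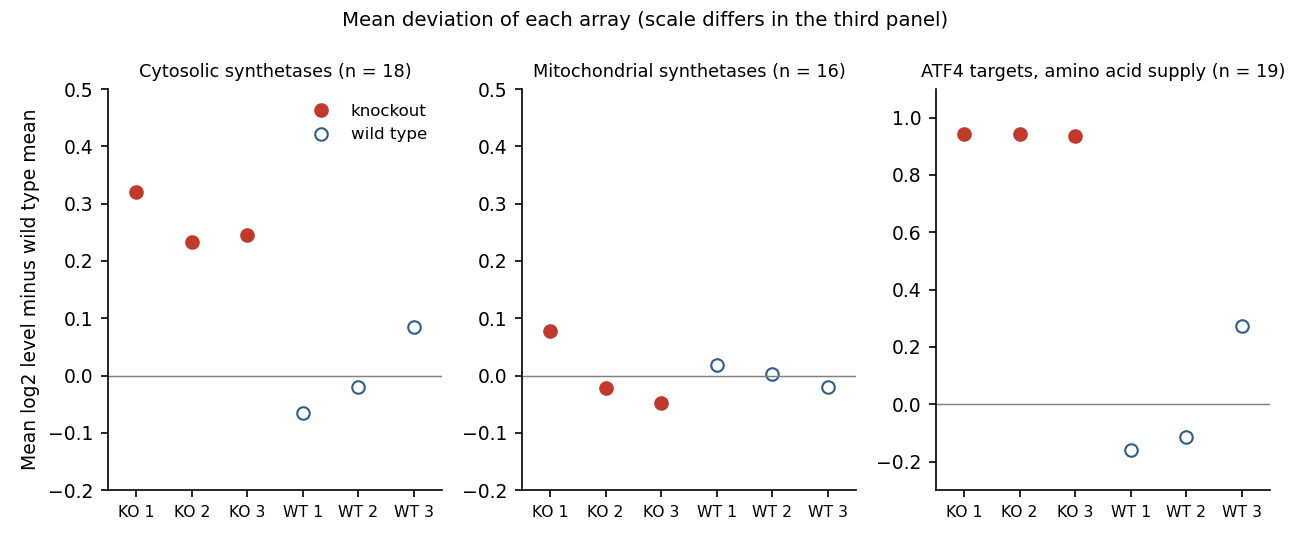
Mean log2 level of each array minus the wild type mean, over 18 cytosolic synthetases, 16 mitochondrial synthetases and 19 ATF4 targets, with knockout arrays as filled points and wild type arrays as open points. The panel of ATF4 targets has a wider vertical scale. Knockout arrays lie above all wild type arrays for cytosolic synthetases and ATF4 targets, where wild type array 3 is the nearest to them, and overlap with wild type for mitochondrial synthetases.

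Knockout array 1 was the highest knockout array in 12 of 18 cytosolic and in 10 of 16 mitochondrial synthetase genes, against 6074 of all 19936 genes. Its mean deviation over the mitochondrial genes was 0.077, against -0.021 and -0.048 for knockout arrays 2 and 3. Without knockout array 1 the median change was 0.25 for the cytosolic genes, with 0 called, and -0.047 for the mitochondrial genes.

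Epithelial markers had lower mean values in the knockout in 8 of 10, with a median of -0.178, 1 called (Aqp8) and 5 with every knockout array below every wild type array, which 7.98% of all genes had. Their part in the synthetase values was not tested. Plasma cells, which make much secreted protein, were read by 4 markers. Their mean level was 6.36 to 6.37 in the knockout arrays and 6.42 to 6.55 in the wild type arrays, with 1 of the 4, Sdc1, above the array median and none called. Sdc1 averaged 10.1 in the knockout and 10.2 in wild type. Jchain, Tnfrsf17 and Mzb1 averaged 3.82 to 6.01, so Sdc1 raises that mean level. The part of plasma cells in the synthetase values was not tested.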

How the data were processed

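The authors deposited log2 signals per probe set, computed with RMA per the submitters' processing notes. This method subtracts background, brings the arrays to a common distribution and combines the probes of a set, so shifts shared by all genes are removed. Not given in the sources used here are the RMA software and the genome build. Array medians lay between 6.32 and 6.36, and the number of arrays limits the precision. Of 35556 probe sets, 21789 named 1 gene, and symbols were updated through the RefSeq table (GRCm38.p6), which gave 19936 genes. Dim probe sets were kept in. Genotypes were compared across all genes with limma 3.58.1 in R 4.3.3 (two-sided, Benjamini-Hochberg), and the fit was tested on simulated data. Changes are knockout minus wild type.

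Genes are named by a rule: all synthetases, the called members of each further list up to 4, the scaffolds, Atf4, Eif2ak3, Eif2ak4, Irf1 and Ido1. Some genes of the rule are not reported here. Members and lists were chosen with earlier results of these data known. Alternatives covered normalization, dim genes, the variance prior, weights, probe sets, the replicate number and each left-out array.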

Additional observations from a re-analysis of the deposited data

How the results depend on the processing

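Over 11 alternatives with all arrays and 6 fits with 1 array left out, the median change of the cytosolic synthetases ran from 0.24 to 0.32 and that of the mitochondrial ones from -0.047 to 0.021, and no mitochondrial gene was called in any of these fits. The count of called cytosolic genes, 4 in the reported fit, was 2 with the replicate block, 8 without the dimmest 50% of genes, 7 with an intensity trend and 0 with an ordinary variance, and 0 to 4 with an array left out. Over all genes, 183 were called higher and 142 lower. The counts were 117 higher with the replicate block, 324 higher and 274 lower without the dimmest 50%, 325 and 289 with an intensity trend, and 2 and 2 with an ordinary variance, and with an array left out 46 to 190 higher and 23 to 113 lower. Pars2 has no value without the dimmest 50%. Fewer genes tested, or fewer degrees of freedom, belong to some of these settings by construction, and otherwise the cause was not tested. With an ordinary variance the further lists had 0 called, among them Xpot (also 0 with the replicate block), the 3 eIF2α feedback genes, 13 ATF4 targets and 3 interferon-induced genes. With an array left out these were 0 to 1, 1 to 3, 8 to 16 and 0 to 2. Eif2ak2, an eIF2α kinase looked up after this count was seen, was called lower (1 gene) without the dimmest 25% or 50% and with an intensity trend. The change of Sel1l was -0.741 at an adjusted p of 0.2 with an ordinary variance, and lay between -0.867 and -0.668 over the fits that leave out 1 array (adjusted p 0.013 to 0.087). In the 250 bases before the start the core motif was found for 3 cytosolic genes and ATTGCATCA for 1. The pair count lay between 10 and 14 over the same fits. It could not fall below 10 there, because leaving out an array cannot undo a full separation, so this range does not test its stability. Deviations of same-numbered arrays correlated at -0.104, 0.151 and 0.153 over genes, and not every array correlated best with its own number, so the replicate numbers were not taken as pairs, and the block changed the calls of Gars and Rars and of no other synthetase gene. The second Iars probe set was tried after seeing the data. The 3 arrays of a genotype are too few for an exact test below 0.1, and the depth of an array has no count behind it.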
